A study of Mus musculus with 12 samples.

Results

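Fibroblast growth factor 1 (*Fgf1*), the secreted FGF binding protein *Fgfbp3* and the FGF receptors *Fgfr1*, *Fgfr2* and *Fgfr3* were measured as RNA in bone marrow cells sorted as endothelial, from naive mice and from mice with cardiovascular disease. RNA of blood cell genes was abundant in these libraries (below). These 5 genes were matched by symbol to their Ensembl identifiers in a table of 55421 genes, and all 5 had enough counts to be tested, as did 15999 genes in all. They were chosen from results of these same libraries. *Fgf1* and *Fgfbp3* are taken to have been selected on their difference between atherosclerosis and controls, so that every comparison of these genes that involves the atherosclerosis libraries is given as a description and supports nothing. The receptors complete the family. In atherosclerosis, *Fgfbp3* RNA was 4.98-fold lower than in controls and passed the test across all genes. *Fgf1* RNA was 3.03-fold higher there without passing, and no receptor passed in any disease.

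Fibroblast growth factors are secreted proteins that bind heparan sulfate chains on the cell surface and in the matrix, and together with these chains they activate receptor tyrosine kinases of the FGFR family. FGF1 lacks a classical signal peptide, is released by an unconventional export complex and binds all of the FGF receptors. FGF binding proteins release FGFs from the heparan sulfate on which they are stored and hand them to their receptors. FGFR1 and FGFR2 are the best known receptors of vessels and stroma, and signaling through them drives the growth of endothelial cells, the survival of stromal cells and, in the marrow, the expansion of hematopoietic stem cells.

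The libraries came from 12 mice aged 20 weeks, 3 in each of 4 groups, each labelled with a replicate number of 2, 3 or 4. Naive controls were C57BL/6J mice with no treatment named, hypertensive C57BL/6J mice received angiotensin II, which raises blood pressure, from implanted pumps for 8 weeks, and MI mice were C57BL/6J mice whose coronary artery was tied permanently. Mice with atherosclerosis carried the *Apoe* (tm1Unc) knockout in every cell and ate a western diet for 10 weeks, so that genotype and diet cannot be told apart in this group. The labels place the MI samples on day 2 and the study's text on day 4. The sort kept cells that were low for the blood markers TER-119, CD41 and CD45, high for CD31 and positive for SCA-1.

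Total counts per library were between 17007088 and 25136936 (median 19419915), and 3 counts, the least taken as measured, equalled 0.116 to 0.176 CPM (reads on a gene as a share of the library, times a constant common to all). Values are CPM after TMM scaling, a correction for differences in library composition, with factors between 0.934 and 1.06. *Apoe*, the targeted gene, held between 7.28 and 14.8 CPM in *Apoe* knockout mice and at least 450.5 CPM in every other library. The 20 endothelial marker genes, *Cdh5*, *Pecam1*, *Kdr* and *Emcn* among them, summed to between 184 and 355 CPM of the library total (without TMM scaling, as for all marker sums), with *Cdh5* between 2.00 and 4.19 TMM-scaled CPM, and none of the 20 was at 0 throughout. Markers of 13 mesenchymal stromal genes summed to between 248 and 638 CPM and those of 12 neutrophil genes to between 34986 and 92508 CPM. The 11 erythroid genes summed to between 10745 and 43496 CPM, and 8 genes of eosinophils, basophils and mast cells to between 6348 and 15018 CPM. RNA of these blood cell genes was thus far more abundant in these libraries than RNA of endothelial genes. Atherosclerosis replicate 2 correlated least with the remaining libraries (mean Pearson's r of 0.960 across genes) and MI replicate 2 next (0.966), against at most 0.981 for any library.

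*Fgf1* lies on the minus strand of chromosome 18 of GRCm38, from 38838673 to 38929472 (ENSMUSG00000036585), opposite an intron of *Arhgap26* with which it shares no exon. In naive controls its level was 0.617, 0.433 and 0.427 CPM in replicates 2, 3 and 4, from 11, 8 and 11 counts. In atherosclerosis it was 1.29, 1.41 and 1.78 CPM, from 29, 24 and 35 counts. Every atherosclerosis library lay above every control, and also above every library of the other disease groups. The log2 fold change was 1.60 (standard error, SE, 0.40 and 95% interval 0.74 to 2.46). Under the quasi-likelihood model of edgeR its p, corrected by Benjamini-Hochberg for all 15999 genes and called edgeR adjusted p from here on, was 0.292, and 0.0356 with the likelihood-ratio test of edgeR that the study names. That comparison chose the gene and is no test of it. In bulk RNA, more cells of a type that makes a transcript and more RNA per cell cannot be told apart.

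In hypertension *Fgf1* reached 0.999, 0.482 and 1.10 CPM, from 22, 11 and 22 counts. Replicates 2 and 4 were above all controls and replicate 3 lay among them. The log2 fold change was 0.80 (SE 0.41, 95% interval -0.08 to 1.68, edgeR adjusted p = 0.951). After MI the level was 0.607, 0.794 and 0.405 CPM, overlapping with controls, with a log2 fold change of 0.30 (SE 0.42, 95% interval -0.61 to 1.22, edgeR adjusted p = 1.00). Neither difference passed the test. None of the 5 genes had an unadjusted p under 0.05 in hypertension or after MI, against 3.71% and 2.80% of all genes. At the adjusted threshold no gene was called in these comparisons (0% of 15999 genes at an adjusted p under 0.05 in hypertension and 0% after MI). MI and hypertension, compared directly, differed in *Fgf1* by -0.50 (SE 0.40, edgeR adjusted p = 0.705), where 0% of all genes were called as well.

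Ordered by mean, *Fgf1* was lowest in controls (0.492 ± 0.108 CPM, SD, n = 3), then after MI (0.602 ± 0.194, SD, n = 3), in hypertension (0.861 ± 0.332, SD, n = 3) and in atherosclerosis (1.49 ± 0.257, SD, n = 3). Controls, MI and hypertension overlapped, and only the atherosclerosis libraries stood clear of their nearest neighbours. Depth limits these values: the groups held 30, 33, 55 and 88 counts in all, with exact 95% Poisson intervals of 20.2 to 42.8, 22.7 to 46.3, 41.4 to 71.6 and 70.6 to 108 that cover counting error only.

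**Figure D1:**
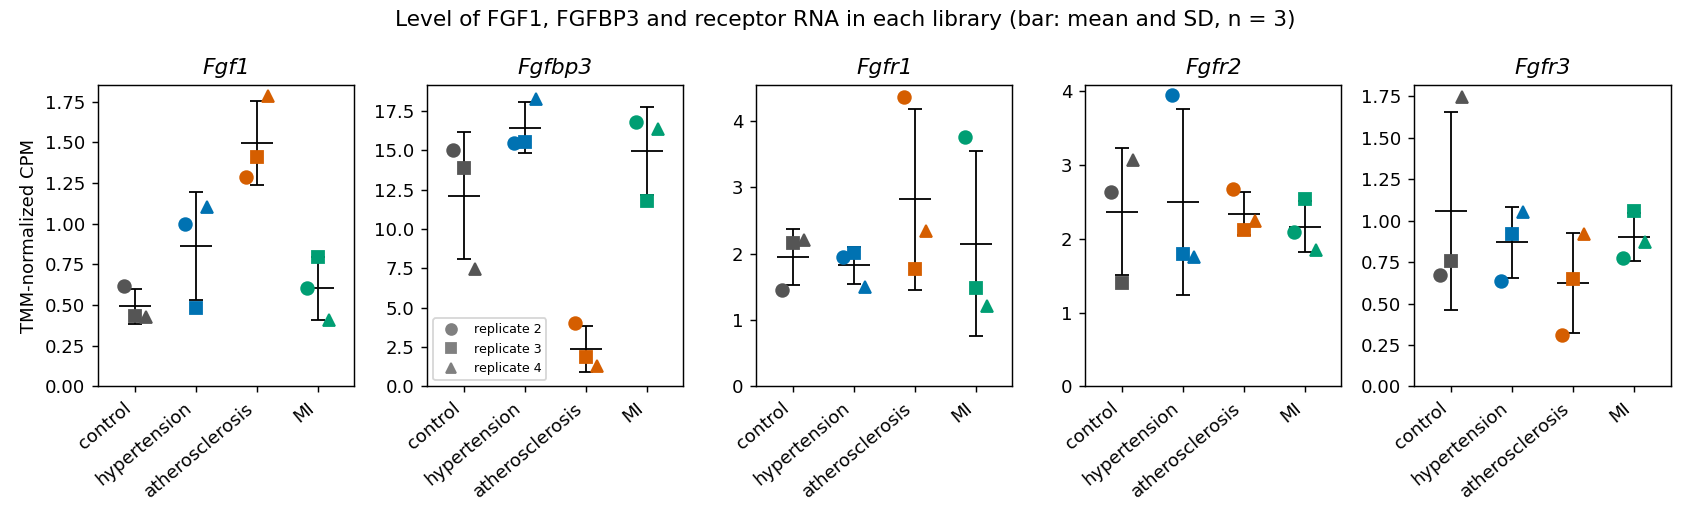
TMM-normalized CPM (vertical axes, each starting at 0) of the 5 genes in the 12 libraries by group; symbols mark the replicate number, horizontal bars the mean and whiskers the SD over 3 mice. The atherosclerosis libraries sit above all others for Fgf1 (1.29 to 1.78 CPM) and below all others for Fgfbp3 (1.27 to 4.05 CPM), while the groups overlap for Fgfr1, Fgfr2 and Fgfr3.

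Like *Fgf1*, the sum of macrophage markers was higher in every atherosclerosis library than in any control. The 12 macrophage genes summed to between 986 and 1248 CPM of the library total in atherosclerosis, above the controls at 646 to 812 CPM, whereas the sums were 658 to 1055 in hypertension and 605 to 875 after MI. All 12 had a positive log2 fold change in atherosclerosis, and 7 were above every control, as were 809 of the 15999 genes tested. *Cd5l* (2.22) and *C1qa* (0.97) were called, where 0.144% of all genes were. *Adgre1* (0.20) and *Hmox1* (0.16) had the smallest values, and neither was above every control. Genes of plasmacytoid dendritic cells (8 genes) also summed higher in atherosclerosis (414 to 471 CPM) than in controls (314 to 357 CPM). The endothelial sum overlapped between atherosclerosis (228 to 355 CPM) and controls (184 to 317 CPM), as did the stromal sum (356 to 638 against 330 to 558 CPM). With the macrophage share as a covariate, which was added after the data were seen, the log2 fold change of *Fgf1* in atherosclerosis was 1.28. The macrophage sums of these 2 groups did not overlap, so this fit cannot separate macrophage RNA from the disease. The part of macrophage RNA in the *Fgf1* value was not tested.

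Of the other 21 FGF ligands listed, 9 reached 3 counts in any library, and *Fgf2*, *Fgf3*, *Fgf7* and *Fgf13* had enough counts to be tested. *Fgf2*, an endothelial mitogen, was between 0.222 and 1.05 CPM across all libraries, with overlapping groups and log2 fold changes of 0.44, 0.05 and 0.47 in hypertension, atherosclerosis and MI. It shares 640 exon bases with *Nudt6* on the opposite strand and 255 with the transcript *Gm43439* on its own, and since the strand setting of the deposited counts is not given in the sources used here, their reads may not be told apart. *Fgf7*, which stromal cells secrete to act on epithelium through FGFR2, was between 0.501 and 2.22 CPM, with log2 fold changes of 0.13, -0.20 and 0.28. *Fgf3* was 4.05, 3.82 and 4.23 CPM in atherosclerosis against 1.85, 1.73 and 3.37 in controls, a difference of 0.78 (SE 0.39) that did not pass the test in spite of groups that did not overlap. *Fgf13*, a member of the group that stays inside the cell and acts on sodium channels, was 0.883, 0.900 and 1.04 CPM after MI against 1.79, 1.84 and 1.82 in controls. Its log2 fold change after MI of -0.95 (SE 0.37) likewise did not pass after adjustment (edgeR adjusted p = 1.00).

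The remaining ligands were close to or at the limit of detection. *Fgf9*, *Fgf11*, *Fgf18*, *Fgf22* and *Fgf23* reached at most 10, 7, 4, 5 and 12 counts in any library. The highest library of *Fgf9* was atherosclerosis replicate 2 at 0.445 CPM, where no other library had more than 1 count. That of *Fgf23* was MI replicate 2 at 0.662 CPM. The other 12 ligands had at most 2 counts in any library, which is under the 3 counts taken as measured.

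*Fgfbp3* lies on the minus strand of chromosome 19, from 36917550 to 36919615 (ENSMUSG00000047632), and shares no bases with another annotated gene. It was the most abundant of the 5 genes per exon length, at 6.84 ± 2.29 CPM per kb in controls (SD, n = 3), where *Fgf1* and the receptors were between 0.09 and 0.23 CPM per kb on average. In controls its level was 15.0, 13.9 and 7.49 CPM, from 268, 256 and 193 counts. In atherosclerosis it was 4.05, 1.88 and 1.27 CPM, from 91, 32 and 25 counts. The highest atherosclerosis library, replicate 2, was thus below the lowest control, replicate 4. The log2 fold change was -2.32 (SE 0.37, 95% interval -3.12 to -1.51), and *Fgfbp3* ranked 14 by p among all genes tested, with an edgeR adjusted p of 0.0342. These are the values on which the gene was selected.

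In atherosclerosis 0.144% of the genes tested were called at an adjusted p under 0.05, 17 higher and 6 lower, and *Fgfbp3* was the only member among them. Since the comparison was used to choose it, nothing is read from this count. The call was lost without control replicate 2 (adjusted p = 0.15), control replicate 3 (0.187), atherosclerosis replicate 3 (0.127) or atherosclerosis replicate 4 (0.0754), all with edgeR, while the log2 fold change stayed between -2.93 and -2.01 when each mouse was left out. It was also lost with the macrophage share as a covariate, where the log2 fold change was -1.78 (edgeR adjusted p = 0.0892), and with only the 2 groups in the fit (-2.32, edgeR adjusted p = 0.292). Among marker lists, the macrophage and plasmacytoid dendritic cell sums did not overlap between these groups (above). A covariate fit cannot separate them from the disease, and their part in the *Fgfbp3* value was not tested.

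In the other disease groups *Fgfbp3* was at or slightly above the control level. In hypertension it was 15.5, 15.5 and 18.3 CPM, and the lowest of these libraries (15.48) was just above the highest control (15.02). The log2 fold change was 0.44 (SE 0.34, 95% interval -0.30 to 1.18, edgeR adjusted p = 0.951). *Fgfbp3* was the only one of the 5 genes whose libraries did not overlap in this comparison, where 16.8% of all genes did not overlap. Marker sums of neutrophils (38219 to 54823 against 60397 to 79915 CPM), monocytes (1320 to 1428 against 1442 to 1956 CPM) and plasmacytoid dendritic cells (294 to 309 against 314 to 357 CPM) were lower in every hypertension library than in any control, and their part in this value was not tested. After MI it was 16.8, 11.7 and 16.3 CPM, overlapping with controls, with a log2 fold change of 0.31 (SE 0.34, 95% interval -0.44 to 1.05, edgeR adjusted p = 1.00). None of the 5 genes was free of overlap after MI, against 8.86% of all genes. In atherosclerosis *Fgf1* and *Fgfbp3* were free of overlap with controls, the pattern for which they were selected, against 9.51% of all genes.

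Set directly against the other diseases, *Fgfbp3* had a log2 difference of -2.76 (SE 0.38) between atherosclerosis and hypertension and of -2.62 (SE 0.38) between atherosclerosis and MI. The edgeR adjusted p values of 0.0118 and 0.0124 are descriptions, since the atherosclerosis libraries were used to choose the gene. The first call was lost in 5 of 18 alternatives, among them without atherosclerosis replicate 3 (edgeR adjusted p = 0.115), hypertension replicate 3 (0.0621) or hypertension replicate 4 (0.0675). The second was lost in 3 of 18, without MI replicate 2 (edgeR adjusted p = 0.0585), without MI replicate 4 (0.0617) and with only the 2 groups in the fit (0.14). In these comparisons 0.0625% and 0.269% of all genes were called. Between MI and hypertension, neither of which was used, the difference was -0.14 (SE 0.34, 95% interval -0.87 to 0.60, edgeR adjusted p = 0.912). Ordered by mean, *Fgfbp3* was thus highest in hypertension (16.4 ± 1.60 CPM, SD, n = 3), followed by MI (15.0 ± 2.79, SD, n = 3) and by controls (12.1 ± 4.06, SD, n = 3), and lowest in atherosclerosis (2.40 ± 1.46, SD, n = 3). The MI libraries overlapped with those of both hypertension and controls.

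Other genes for binding and export of FGFs did not pass the test in any comparison with controls. *Fgfbp1*, the other FGF binding protein listed, had 0 counts in every library. *S100a13*, part of the complex that exports FGF1, was 31.7, 87.8 and 61.4 CPM in atherosclerosis, 70.6, 66.1 and 41.9 in hypertension, 103, 92.6 and 109 after MI and 100, 84.9 and 71.5 in controls, with log2 fold changes of -0.50, -0.52 and 0.25 in that order of diseases. *Syt1*, another part of that complex, reached at most 3 counts. *Sphk1*, a lipid kinase needed for the same export, was between 50.8 and 90.2 CPM, *Fibp*, which binds FGF1 inside the cell, between 12.1 and 38.5 CPM, and *Lrrc59*, which brings FGF1 into the nucleus, between 193 and 270 CPM. For these 3 genes the groups overlapped in atherosclerosis, with log2 fold changes of 0.12, -0.25 and 0.12.

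The receptors were the members that least separated the groups. *Fgfr1*, on the plus strand of chromosome 8 from 25513654 to 25575718 (ENSMUSG00000031565) with 164 exon bases opposite the antisense gene *Gm16159*, was 1.46, 2.17 and 2.21 CPM in controls and 1.95, 2.01 and 1.50 in hypertension. In atherosclerosis it was 4.36, 1.76 and 2.34 CPM and after MI 3.75, 1.48 and 1.22 CPM. Replicate 2 was the high library in both of these groups, and these are the 2 libraries that correlated least with the rest. In hypertension the log2 fold change was -0.10 (SE 0.44, 95% interval -1.05 to 0.86), against 0.54 for atherosclerosis (SE 0.44, -0.40 to 1.48) and 0.14 for MI (SE 0.44, -0.81 to 1.10). Without atherosclerosis replicate 2, hypertension replicate 4 and MI replicate 2 together, the value after MI turned to -0.53 and that in atherosclerosis was 0.07, as against 0.09 without atherosclerosis replicate 2 alone.

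*Fgfr2* lies on the minus strand of chromosome 7, where the annotation gives it a span from 130162451 to 133123350 (ENSMUSG00000030849) and 314 exon bases shared on the same strand with *Ctbp2*, a transcriptional corepressor. Reads in these bases cannot be assigned to either gene. It was 2.63, 1.41 and 3.06 CPM in controls, 3.95, 1.80 and 1.75 in hypertension, 2.67, 2.11 and 2.24 in atherosclerosis and 2.10, 2.54 and 1.85 after MI. All groups overlapped, and the atherosclerosis and MI libraries lay wholly inside the range of the controls. The log2 fold changes were 0.07 (95% interval -0.72 to 0.87), -0.02 (-0.82 to 0.78) and -0.14 (-0.94 to 0.67) in hypertension, atherosclerosis and MI. With the macrophage share as a covariate the values were -0.78 in atherosclerosis against controls and -0.61 against hypertension, without passing the test (edgeR adjusted p = 0.357 and 0.58).

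*Fgfr3*, on the plus strand of chromosome 5 from 33721674 to 33737068 (ENSMUSG00000054252), was the least abundant receptor of the 3 per exon length in every group. It shares 998 exon bases with *G630022F23Rik* on the opposite strand, whose reads may likewise not be told apart. It was 0.673, 0.758 and 1.75 CPM in controls, 0.636, 0.920 and 1.05 in hypertension, 0.311, 0.646 and 0.917 in atherosclerosis and 0.773, 1.06 and 0.869 after MI. The control mean rested on replicate 4, and the other controls were inside the range of each disease group except MI, whose lowest library lay just above them. The log2 fold changes were -0.31 (95% interval -1.29 to 0.66), -0.80 (-1.81 to 0.22) and -0.26 (-1.24 to 0.72) in hypertension, atherosclerosis and MI. Without control replicate 4 the value in atherosclerosis was -0.20, and without atherosclerosis replicate 2 it was -0.45.

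For the receptors, the edgeR adjusted p was at least 0.868 in every comparison with controls. The intervals are wide and reach 1.48 for *Fgfr1* and -1.81 for *Fgfr3* in atherosclerosis, and differences within these intervals could not be set apart from 0 with 3 mice a group. Per exon length, *Fgfr2* averaged 0.229 ± 0.0832 CPM per kb in controls, *Fgfr1* 0.197 ± 0.0428 and *Fgfr3* 0.148 ± 0.0833 (SD, n = 3 each). The ranges of the 3 receptors over the control libraries overlapped.

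**Figure D2:**
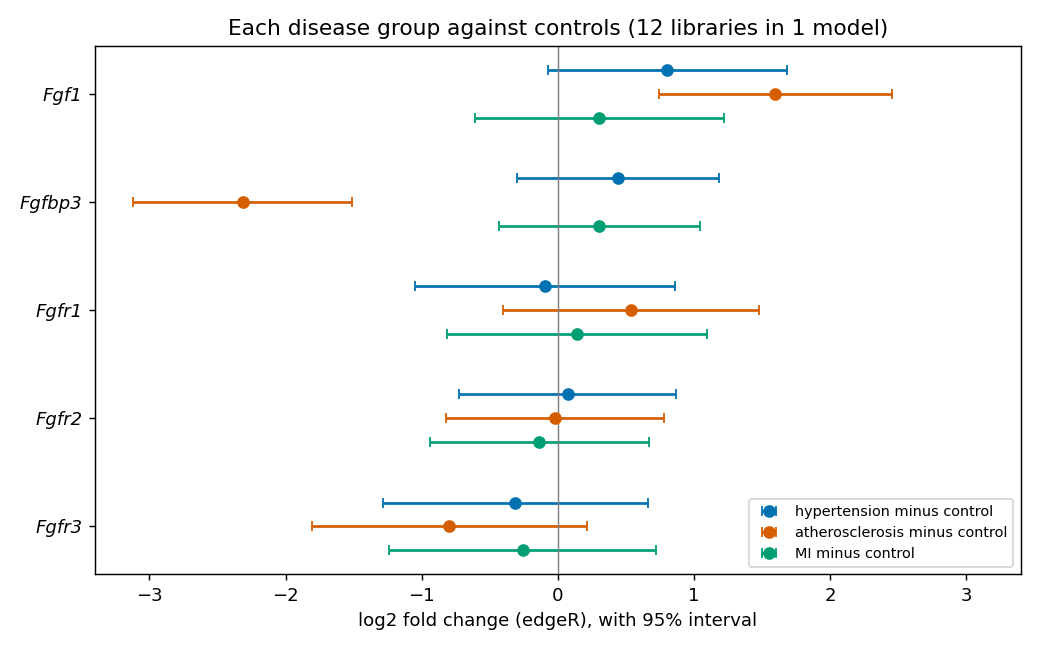
Log2 fold change (horizontal axis) of the 5 genes in hypertension, atherosclerosis and MI against the same 3 controls, with 95% intervals from the edgeR fit to 12 libraries. The intervals of Fgf1 (0.74 to 2.46) and Fgfbp3 (-3.12 to -1.51) in atherosclerosis exclude 0, in the comparison used to select these genes, and all other intervals include it.

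*Fgfr4* had at most 2 counts in any library. *Fgfrl1*, a receptor without a kinase domain, was 6.72, 7.75 and 7.79 CPM in atherosclerosis and 4.54, 4.87 and 7.37 in controls, overlapping, with a log2 fold change of 0.40 (SE 0.24). It was 5.40, 6.04 and 8.41 CPM in hypertension and 4.31, 5.34 and 4.63 after MI, with log2 fold changes of 0.24 and -0.24. The klotho co-receptors *Kl* and *Klb*, which endocrine FGFs need, reached at most 3 and 7 counts.

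Across 7 lists that follow the pathway from ligand to response, 73 of 108 genes were tested and 90 had at least 3 counts in a library. In atherosclerosis *Sdc3* was called higher and *Fgfbp3* lower, where 0.144% of all genes were called. At an unadjusted p under 0.05, 4 genes were higher and 1 lower, and 5.97% of all genes reached it. *Fgf1* and *Fgfbp3*, taken to have been chosen on this comparison, are in these counts, from which nothing is read. In hypertension none was called and 1 was higher at an unadjusted p under 0.05 (3.71% of all genes), and after MI none was called and 2 were lower (2.80% of all genes). The median log2 fold change over the 73 genes was 0.09 in atherosclerosis, against 0.01 over all genes tested, -0.01 in hypertension against -0.01, and -0.03 after MI against 0.00. The count of 2 in atherosclerosis was 0 without control replicate 2, control replicate 3, atherosclerosis replicate 3 or atherosclerosis replicate 4, and 1 without control replicate 4. It was also 0 with the macrophage share as a covariate or with only the 2 groups in the fit, and 1 with the endothelial share.

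The heparan sulfate carriers hold FGFs at the cell surface or in the matrix. Of these, 10 of 13 were tested and the syndecan *Sdc3* was the called gene. It was 43.2, 47.3 and 63.5 CPM in atherosclerosis and 21.2, 25.4 and 25.8 in controls. The log2 fold change was 1.09 (SE 0.17, edgeR adjusted p = 0.0342), with all atherosclerosis libraries above all other libraries. It shares 415 and 48 exon bases with the antisense genes *Gm26716* and *Gm12970*. Hypertension (34.5, 28.3 and 27.2 CPM) and MI (18.4, 22.9 and 19.9 CPM) were not called. The median of the carriers was 0.13 in atherosclerosis, and the lowest value there was that of *Sdc2* (-0.42). In hypertension the range was from *Sdc2* (-0.41) to *Sdc1* (0.32), and after MI from *Sdc4* (-0.61), which had an unadjusted p under 0.05, to the glypican *Gpc3* (0.36).

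Enzymes that build and edit heparan sulfate (15 of 19 tested) held no called gene in any comparison with controls, and the list medians were 0.16 (hypertension), 0.04 (atherosclerosis) and 0.08 (MI). Their extremes in atherosclerosis were the sulfotransferase *Hs6st1* (0.56) and the extracellular sulfatase *Sulf1* (-1.25), which was at 0, 0.587 and 0.560 CPM there against 1.12, 0.812 and 0.737 in controls. *Sulf1* was also the highest in hypertension (0.37) and after MI (0.48), and the sulfotransferase *Hs3st1* the lowest (-0.36 and -0.48). All 18 receptor adaptors and kinases of the cascade were tested, and none was called. The highest in hypertension was *Frs3* (0.72), and the extremes in the other diseases were *Braf* (0.81) and *Mapk3* (-0.25) in atherosclerosis, and *Nras* (0.15) and *Shc1* (-0.22) after MI. *Braf* was 259 CPM in atherosclerosis replicate 2 and 49.8 and 82.2 CPM in the other two, so its value rests on that library. *Hras* was the gene at an unadjusted p under 0.05 in hypertension (0.32).

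The response list holds genes that FGF signaling induces, including those that feed back on it, and 16 of 22 were tested. None was called, and the list medians were -0.08 (hypertension), 0.15 (atherosclerosis) and -0.12 (MI). In atherosclerosis the phosphatase *Dusp5* (10.8, 14.3 and 16.5 CPM against 9.19, 9.31 and 7.80) and the transcription factor *Etv5* (3.16, 3.52 and 3.72 CPM against 2.13, 2.49 and 2.40) were above all controls. Their log2 fold changes of 0.66 and 0.56 had an unadjusted p under 0.05 and did not pass after adjustment. Of the 15999 genes tested, 809 were above every control and 5.97% had an unadjusted p under 0.05 in atherosclerosis. Whether FGF signaling differed was not tested. The extremes were *Etv1* (0.76), whose value came from 1.96 CPM in atherosclerosis replicate 2, and *Dusp6* (-0.21), a phosphatase that dampens the kinase cascade. In hypertension they were *Spry2* (0.60) and *Flrt3* (-0.66), and after MI *Fosl1* (0.81) and *Spry4* (-0.55).

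**Figure D3:**
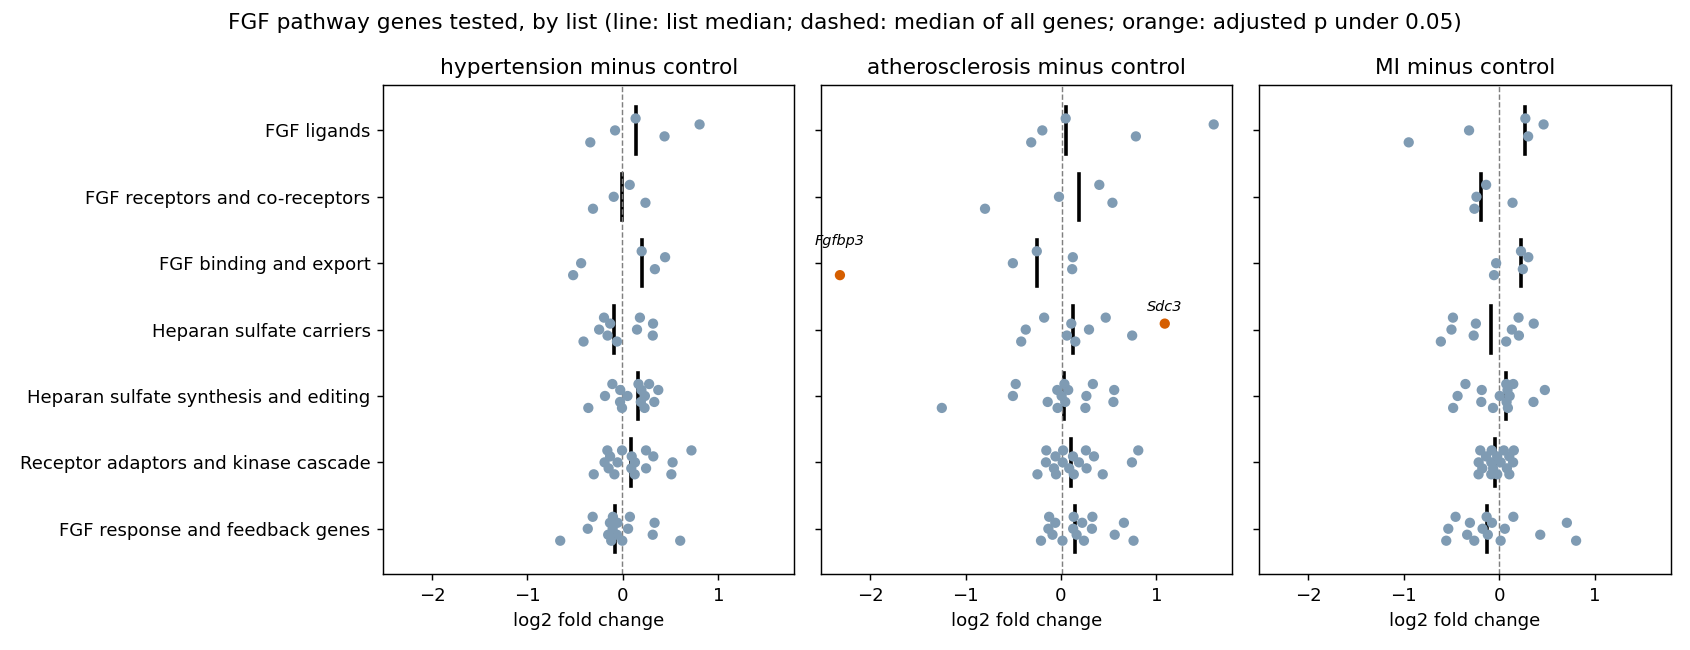
Log2 fold change (horizontal axes) of the 73 pathway genes tested, by list, in each disease against controls; black lines mark list medians, the dashed line the median of all genes tested and orange points an adjusted p under 0.05. Fgfbp3 (-2.32) and Sdc3 (1.09) in atherosclerosis are the called genes, and the medians of the lists lie between -0.25 and 0.28.

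The genes whose log2 CPM ran most alike with a member over the 12 libraries were found by Pearson's correlation. These values share libraries and depth, and are descriptions. For *Fgf1* they were *C1qa* (r = 0.936, rho = 0.937), a complement gene of macrophages, *Neo1* (r = 0.886, rho = 0.804), the gene of neogenin, a receptor of netrins, and *Rsad2* (r = 0.877, rho = 0.888), an interferon-induced gene. *C1qa* (57.7 to 62.7 CPM against 27.3 to 46.2) and *Rsad2* (283 to 404 against 117 to 219) were, like *Fgf1*, higher in every atherosclerosis library than in any other. *Neo1* was low, at 0.47 to 0.578 CPM in atherosclerosis against 0.232 to 0.59 in the other libraries, and overlapped. Over the 9 libraries without atherosclerosis, r with *Fgf1* was 0.888 for *C1qa*, 0.884 for *Neo1* and 0.663 for *Rsad2*.

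For *Fgfbp3* the most alike were *Pdcd5* (r = 0.981, rho = 0.909), *Alkbh6* (r = 0.954, rho = 0.741) and *Btaf1* (r = 0.921, rho = 0.769), a factor that removes TATA-binding protein from DNA. All 3 were lower in every atherosclerosis library than in any other, at 6.16 to 10.9 CPM against 15.1 to 20.7 for *Pdcd5*. Without the atherosclerosis libraries, r over 9 libraries was 0.855 for *Pdcd5*, 0.38 for *Alkbh6* and 0.584 for *Btaf1*. *Pdcd5* and *Alkbh6* lie on chromosome 7, which also carries *Apoe*, and start 15.9 and 10.6 Mb from it. Of the 10 genes most like *Fgfbp3*, 6 were on chromosome 7 within 20 Mb of *Apoe*. The knocked-out *Apoe* was among them (r = 0.901, rho = 0.413). The whole chromosome, not this window, held 7.54% of the genes tested. The ranking includes the atherosclerosis libraries that chose *Fgfbp3*, in which genes low there rank high by construction. Nothing is therefore read from this count. *Fgfbp3* itself is on chromosome 19.

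For the receptors the most alike genes followed no disease group. *Fgfr1* ran with *Fnip1* (r = 0.934), *Sumf1* (r = 0.926) and *Lrp1* (r = 0.897), *Fgfr2* with *Fxyd1* (r = 0.877), *Aldh1a2* (r = 0.876) and *Serping1* (r = 0.874), and *Fgfr3* with *Slc52a2* (r = 0.886), *Clasrp* (r = 0.886) and *Fgd5* (r = 0.883), a gene of endothelial cells. Over these 9 genes rho was between 0.699 (*Slc52a2*) and 0.916 (*Sumf1*). *Aldh1a2* was near the limit of detection in its lowest library (0.162 CPM). For each of these 9 genes the atherosclerosis libraries overlapped with the rest.

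**Figure D4:**
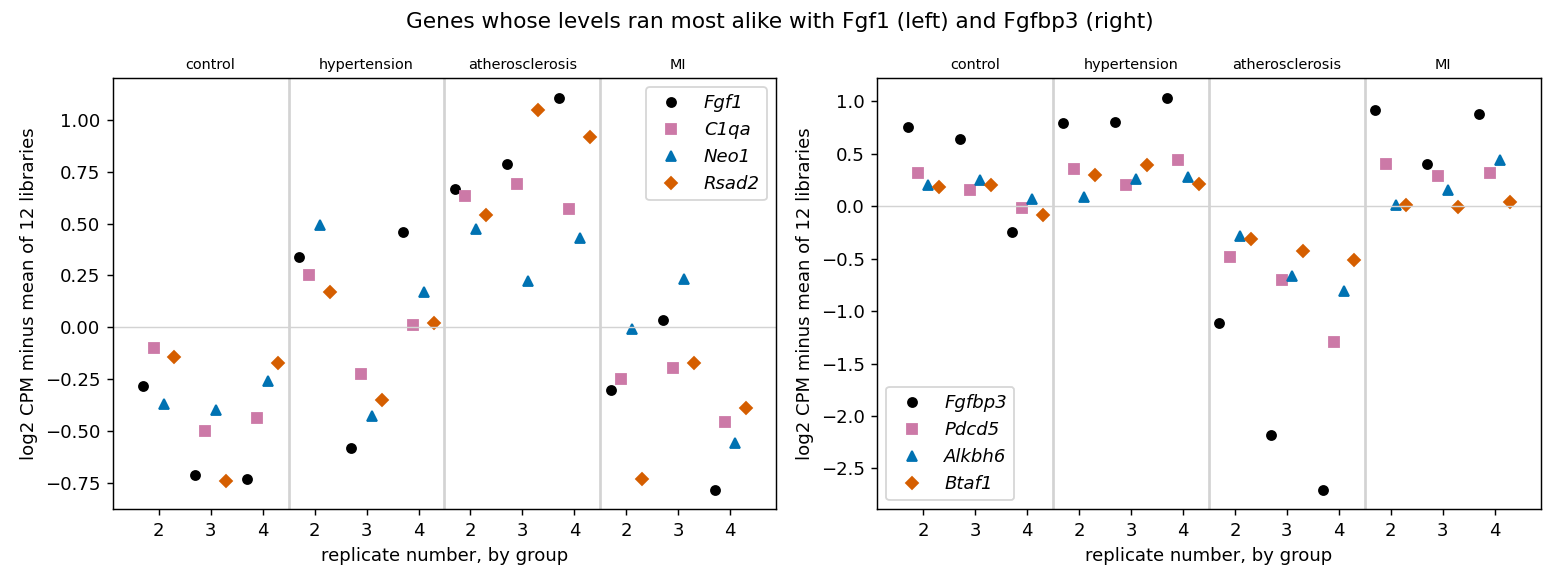
Log2 CPM relative to the mean over 12 libraries (vertical axes) of Fgf1 and Fgfbp3 and of the 3 genes most alike with each, by group and replicate number; replicate numbers carry no order. C1qa and Rsad2 are highest with Fgf1 in atherosclerosis, and Pdcd5, Alkbh6 and Btaf1 are lowest with Fgfbp3, over a narrower range than Fgfbp3 itself.

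*Btaf1* is also the nearest tested neighbour of *Fgfbp3*, 6.5 kb away. Within 500 kb of *Fgfbp3*, 10 other genes were tested and none was called in any comparison with controls. In atherosclerosis *Btaf1* was 54.7, 50.9 and 47.6 CPM against 77.7, 78.7 and 64.3 in controls, a log2 fold change of -0.53 (SE 0.13, edgeR adjusted p = 0.29). *Ide*, the gene of insulin-degrading enzyme, was 40.5, 54.0 and 68.2 CPM against 106, 107 and 96.5, a log2 fold change of -0.93 (SE 0.18, edgeR adjusted p = 0.103). For both genes the atherosclerosis libraries were below all other libraries. *Cpeb3*, with 0.62 (SE 0.22), was the third gene in the window with an unadjusted p under 0.05, and *Tnks2*, 24.1 kb from *Fgfbp3* on its other side, was at -0.06 (SE 0.13). Of all genes tested, 5.97% had an unadjusted p under 0.05 in atherosclerosis and 0.144% were called. In hypertension and after MI no gene of the window had an unadjusted p under 0.05, against 3.71% and 2.80% of all genes.

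**Figure D5:**
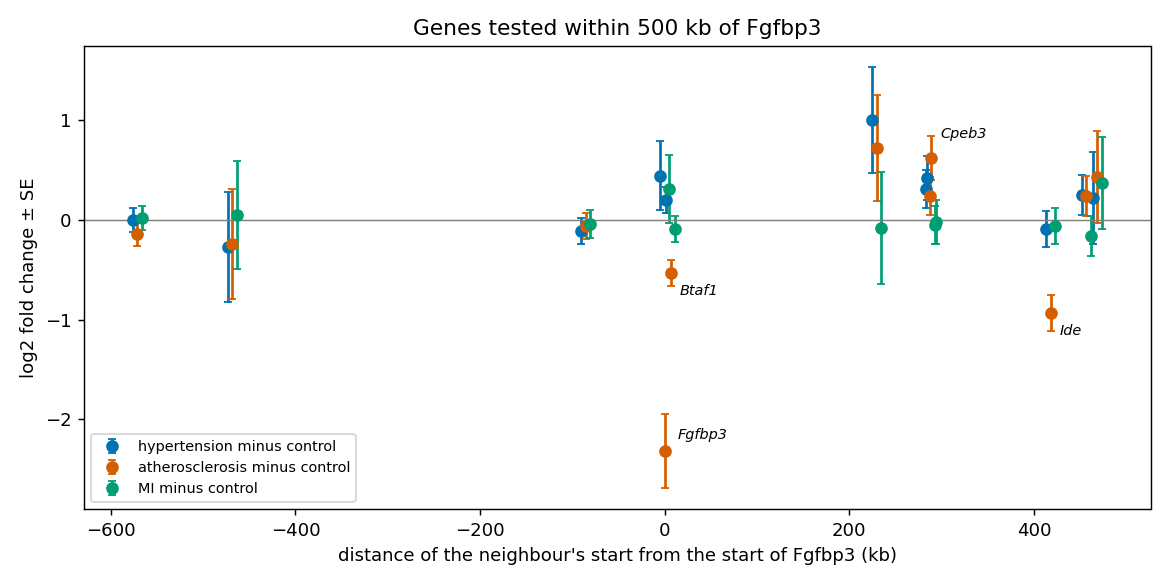
Log2 fold change with its SE (vertical axis) of Fgfbp3 and the 10 genes tested that lie at least in part within 500 kb of it, against the distance between starts (kb, horizontal axis), in each disease against controls. In atherosclerosis Fgfbp3 is at -2.32, Btaf1 at -0.53 and Ide at -0.93, with 7 of the 10 neighbours at an unadjusted p of 0.05 or more. Of all genes tested, 5.97% had an unadjusted p under 0.05 in that comparison.

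Around *Fgf1*, 7 genes were tested within 500 kb and none had an unadjusted p under 0.05 in any disease, with log2 fold changes in atherosclerosis between -0.19 and 0.45. Of all genes, 3.71% had an unadjusted p under 0.05 in hypertension, 5.97% in atherosclerosis and 2.80% after MI.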

How the data were processed

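RNA was sequenced from cells sorted by flow cytometry after bead depletion of lineage-positive cells, 1 library per mouse. The authors aligned single-end reads to GRCm38.p6 with STAR 2.7.3a and deposited raw counts per Ensembl gene from its GeneCounts option; which strand column was taken is not given in the sources used here. Symbols and positions came from GENCODE release M21, which held 55240 of the 55421 identifiers. Counts were analysed in R 4.3.3 with edgeR 4.0.16: filterByExpr, TMM scaling, 1 coefficient for each of 4 groups over 12 libraries (8 residual degrees of freedom, common dispersion 0.0634), glmQLFit and two-sided glmQLFTest, with Benjamini-Hochberg adjustment over 15999 genes. A gene was called at an adjusted p under 0.05. Standard errors (SE) were derived from the log2 fold change and the root of its F statistic. Library shares of marker lists are CPM of the total count. The steps were tested on simulated data. Correlations used log2 CPM with a prior count of 2.

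The 5 genes and all lists were chosen with earlier results of these data known. Beside the 5 genes, those named are the other ligands, receptors and binding or export genes with at least 3 counts, called genes and the extremes of the other lists (1 of which is not reported here), and the 3 genes most alike with each member; *Dusp5*, *Etv5*, *Hras*, *Tnks2*, *Cpeb3*, *Ide*, *Cd5l* and genes with a role in a check were named after their values were seen. Each library is 1 mouse, and p-values measure the spread between these mice. The replicate numbers 2, 3 and 4 were not treated as pairs in the main fit, and whether they mark pairs or a batch was not tested. The other tests and settings are those of the closing section.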

Additional observations from a re-analysis of the deposited data

Results flagged for a closer look

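*Fgfbp3* stood out because its difference from controls was not the same in all diseases. All 3 hypertension libraries lay above the controls, the lowest only just (15.48 against 15.02 CPM), with a log2 fold change of 0.44 (edgeR adjusted p = 0.951). All 3 atherosclerosis libraries lay below them, in the comparison taken to have chosen the gene. Of all genes, 16.8% and 9.51% did not overlap in these 2 comparisons. The difference between atherosclerosis and hypertension was -2.76 on the log2 scale (SE 0.38, edgeR adjusted p = 0.0118). Against MI it was -2.62 (SE 0.38, edgeR adjusted p = 0.0124). The gene was chosen with the atherosclerosis libraries in view, so both values are descriptions. The calls were lost in 5 and 3 of 18 alternatives each, among them with only the 2 groups compared (edgeR adjusted p = 0.109 and 0.14) and, for the first, without atherosclerosis replicate 3 (0.115).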

How the results depend on the processing

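The direction of *Fgfbp3* and *Fgf1* in atherosclerosis against each other group held in every setting that gave a value. Of the values recomputed, 606 were counted as unchanged. Another 15 fell short of the threshold, 1 newly passed, 59 moved beyond their limit and 34 changed sign. For log2 fold changes, unchanged meant the same direction and, where an adjusted p was given, the same side of the threshold. For counts of genes, levels and correlations it meant a change within a set limit. Unless stated, the cause of a change was not tested. Under the likelihood-ratio test that the study names, *Fgf1* in atherosclerosis passed with a log2 fold change of 1.60 (edgeR adjusted p = 0.0356). The *Fgfbp3* call against controls was lost with the replicate block (-2.37, edgeR adjusted p = 0.0546), with the macrophage share as a covariate (-1.78, 0.0892) and with only the 2 groups compared (-2.32, 0.292), where fewer libraries estimate the spread. Against hypertension it was lost with the macrophage share (-2.38, 0.06), with only 2 groups (-2.76, 0.109) and without hypertension replicate 3 (0.0621), hypertension replicate 4 (0.0675) or atherosclerosis replicate 3 (0.115). Against MI it was lost with only 2 groups (-2.63, 0.14) and without MI replicate 2 (0.0585) or MI replicate 4 (0.0617). The macrophage covariate and the fit without atherosclerosis replicate 2, hypertension replicate 4 and MI replicate 2 together were chosen after seeing the data. Same-numbered mice deviated together in 5 of 18 pairs (r between -0.28 and 0.30). Mice of different numbers were not compared, so whether the numbers mark pairs or a batch was not tested. The 2 pathway genes called in atherosclerosis against controls were 0 with the replicate block and 3 with the likelihood-ratio test or without a low-count filter.

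Genes called in atherosclerosis against controls (23), hypertension (10) and MI (43), after MI against controls (0) and against hypertension (0) numbered 81, 70, 274, 1 and 2 with the likelihood-ratio test and 75, 69, 294, 1 and 12 with DESeq2 1.42.0. Without a low-count filter they numbered 432, 235, 790, 130 and 422, with 170 in hypertension against controls. The 3 counts for atherosclerosis in that order were 11, 6 and 20 with the endothelial share as a covariate and 35, 17 and 148 with the stromal share. Against controls and MI they were 7 and 22 with the replicate block, 8 and 537 with the macrophage share (and 1 for MI against hypertension) and 4 and 3 with only 2 groups (and 1 for MI against controls). Leaving out immunoglobulin and hemoglobin genes gave 66 against MI, and leaving out the 3 libraries gave 61, 42 and 82, with 2 after MI against controls. With each mouse left out in turn the counts ranged from 2 to 34 against controls, from 3 to 36 against hypertension and from 8 to 93 against MI, and the *Fgfbp3* value from -2.93 to -2.01, from -3.38 to -2.46 and from -3.24 to -2.32.

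Receptor values near 0 changed sign, none with a call. With the replicate block *Fgfr1* after MI was -0.023. With the endothelial share, *Fgfr3* was 0.064 in hypertension, *Fgfr2* -0.067 between atherosclerosis and MI, and *Fgfr3* -0.135 and *Fgfbp3* 0.023 between MI and hypertension. With the stromal share, *Fgfr3* was -0.029 between MI and hypertension. With the macrophage share, *Fgfr2* was -0.17 in hypertension, -0.648 between atherosclerosis and MI and 0.04 between MI and hypertension. Without the 3 libraries, *Fgfr1* was 0.022 in hypertension, -0.53 after MI and -0.552 between MI and hypertension, *Fgfr3* 0.012 between atherosclerosis and hypertension and *Fgfr2* -0.015 between atherosclerosis and MI. With each mouse left out in turn, *Fgfr1* ranged from -0.262 to 0.027 in hypertension, from -0.529 to 0.42 after MI, from -0.433 to 0.516 between MI and hypertension and from -0.058 to 1.07 between atherosclerosis and MI. *Fgfr2* ranged from -0.423 to 0.314 in hypertension, from -0.287 to 0.219 in atherosclerosis, from -0.401 to 0.104 after MI, from -0.293 to 0.402 between atherosclerosis and hypertension and from -0.409 to 0.288 between MI and hypertension. *Fgfr3* ranged from -0.547 to 0.282, from -0.493 to 0.336 and from -0.125 to 0.208 in hypertension, after MI and between them, and *Fgfbp3* between MI and hypertension from -0.227 to 0.01. *Fgf1* and *Fgfr3* have fewer than 10 counts in some library, so the filter of at least 10 counts in every library gives no value for them.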
